A study of Caenorhabditis elegans with 2 samples.

Results

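The 10 genes described here, xol-1, sdc-2, her-1, tra-2, fem-1, fem-2, fem-3, tra-1, fog-1 and fog-3, are the core genes of sex determination in the nematode Caenorhabditis elegans, out of 19973 protein-coding genes compared. They were chosen by their place in the pathway and taken by gene symbol, with the signals and ranks of their peaks in these lists already known, so those values are a description of the genes and no test of them. The question was where ZTF-18, a zinc finger protein, was found on DNA at these genes. Chromatin came from whole young adult hermaphrodites of strain OP496, 64 hours after release from starved L1 arrest, which stably carried ZTF-18 with a C-terminal GFP-FLAG tag, and it was precipitated with an antibody to GFP. There was 1 group of 2 libraries, labelled as biological replicates 1 and 2, and no sample without the tag was analysed here. Because whole animals were used, binding in few cells and weak binding in many cells cannot be told apart.

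In C. elegans the number of X chromosomes relative to autosomes sets sex through a chain of inhibitory steps. XOL-1, active in males, represses the SDC genes. In hermaphrodites SDC-2 starts X chromosome dosage compensation and represses her-1, the gene for a secreted ligand that inhibits the membrane receptor TRA-2. TRA-2 in turn restrains the FEM proteins, which together with a CUL-2 ubiquitin ligase promote breakdown of TRA-1, the Gli-family zinc finger protein at the end of the somatic pathway. FOG-1 and FOG-3 act with the FEM proteins in the germ line to specify sperm. A hermaphrodite makes sperm as a larva and oocytes as an adult, so the germ line of a young adult has already made this switch.

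ZTF-18 occupied 1 of these 10 promoters above the reproducibility threshold, that of fem-2, which encodes a protein phosphatase of the PP2C family. A gene was counted when the authors' thresholded list had a peak summit, the highest point of a peak, in its promoter window, which reached from 1000 bp before the annotated 5′ end to 200 bp past it. By that rule 8.18% of all protein-coding genes were counted, so the number of members counted was close to the genomic background. The peak signal is the authors' value for each peak, on a scale that is not stated, and it is used only to describe and rank peaks within a list. The lowest thresholded signal was 93.6 and the highest 11118. The fem-2 peak had a signal of 902 and rank 222 in the pooled list, and sdc-2, with 92.3 and rank 2515, came 50 ranks below the last of the 2465 thresholded peaks. In 3 members, xol-1, her-1 and fog-3, no summit of any list lay in the window, as in 51.1% of all genes. With 1 group of 2 libraries no test between groups was possible, and these values are descriptions.

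**Figure D1:**
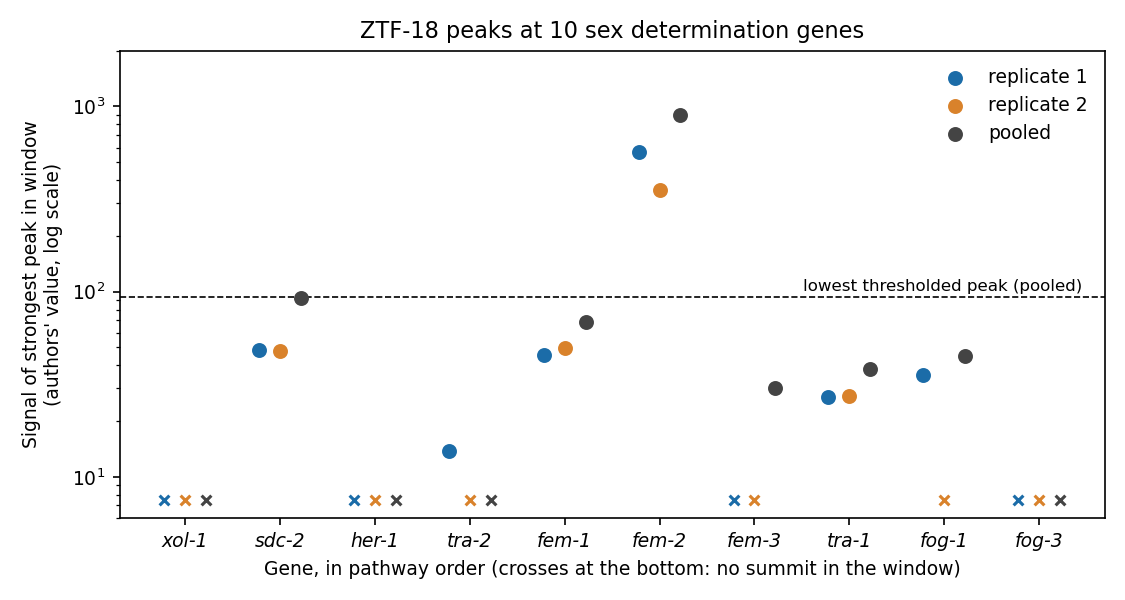
Signal of the strongest peak with its summit in the promoter window of each of the 10 genes (log scale), in replicate 1, replicate 2 and the pooled list, with the lowest thresholded signal as a dashed line. Crosses at the bottom mark lists with no summit in the window. The fem-2 points stand at 571, 354 and 902, above those of the other genes, and the pooled sdc-2 point lies just under the line. The line is a pooled value and no cut for the replicate points. The signal at the same number of peaks was 58.8 in replicate 1 and 44.6 in replicate 2.

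The sequences under the summits were compared for 8-base words that were common within 50 bp of the 250 strongest nuclear summits and rare 250 to 300 bp away. The leading word was GCGCCAGC, found at 99 of these summits (39.6%) and in 1.55% of all protein-coding windows of 1201 bp, on either strand. The 10 leading words overlap each other, and the group included AAACGCGC (30.8% of the summits and 3.64% of windows), CGCGTTTC (29.6% and 2.40%), AACGCGCC (24.0% and 1.99%) and ACGCGCCA (24.0% and 1.19%). The search for words beyond the leading one was chosen after seeing the data. At least 1 of the 10 words lay within 50 bp of 79.2% of the 250 strongest summits and of 7.69% of the later thresholded nuclear summits, and anywhere in 15.0% of all protein-coding windows, which are longer. The fem-2 summit is shown because it is the thresholded promoter site among the members. The summits of sdc-2, fem-1 and the tra-1 intron are shown as the next strongest sites of the members outside fem-2, and sel-10, an F-box gene described below, as a strong pathway site. Each sequence is the RefSeq copy of the WBcel235 assembly (ce11) read on the strand of its gene, and capitals mark bases that belong to one of the 10 words.

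fem-2, chrIII:634671-634871, minus strand: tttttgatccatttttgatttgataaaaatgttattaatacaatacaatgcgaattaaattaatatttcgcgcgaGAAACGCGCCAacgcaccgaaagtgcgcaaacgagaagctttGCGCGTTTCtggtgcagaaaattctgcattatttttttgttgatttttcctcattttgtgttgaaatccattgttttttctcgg
sdc-2, chrX:11522229-11522329, plus strand: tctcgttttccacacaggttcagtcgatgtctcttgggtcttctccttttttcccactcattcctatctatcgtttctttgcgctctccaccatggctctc
fem-1, chrIV:5538080-5538180, minus strand: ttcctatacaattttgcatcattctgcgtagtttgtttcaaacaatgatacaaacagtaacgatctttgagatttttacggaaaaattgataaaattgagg
tra-1 intron, chrIII:11185603-11185703, minus strand: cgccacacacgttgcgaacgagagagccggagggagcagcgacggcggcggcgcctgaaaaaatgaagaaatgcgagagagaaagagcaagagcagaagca
sel-10, chrV:13819146-13819246, plus strand: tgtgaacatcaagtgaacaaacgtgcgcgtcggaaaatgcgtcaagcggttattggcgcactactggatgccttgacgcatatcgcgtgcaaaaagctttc

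The fem-2 promoter held 4 of the 10 words. CGCGTTTC, AAACGCGC, AACGCGCC and ACGCGCCA overlap in a run from 170 to 160 bp upstream of the 5′ end, and AAACGCGC and CGCGTTTC recur on the other strand from 128 to 120 bp upstream. The pooled summit, 145 bp upstream, lay between both runs. The 4 words overlap within the first run and are not 4 separate matches there, and the second run is a separate match. At least 1 of the 10 words was present in 2996 promoter windows, of which 606 (20.2%) had a thresholded summit, against 6.06% of the 16977 windows with none. For AAACGCGC alone it was 29.3% of 728 windows. For at least 4 words, a minimum set at the number in fem-2 after seeing it, it was 141 of 159 windows (88.7%). The words were taken from strong peaks that include fem-2, so these shares are not independent of its signal. The printed sdc-2, fem-1, tra-1 intron and sel-10 sequences held none of the 10 words. The fem-1 sequence is centred on the pooled summit and holds no replicate summit. The nearest lay 119 bp from the pooled summit in replicate 1 and 284 bp from it in replicate 2. The whole fem-1 window also held none of the words. Of the other members, fem-3 held AAACGCGC from 422 to 415 bp upstream with no summit there, and tra-1 held GCGCCAGC on the other strand from 607 to 600 bp upstream. GC content within 50 bp of the summit was 44.6% at fem-2, 47.5% at sdc-2, 29.7% at fem-1 and 58.4% in the tra-1 intron, against a median of 47.5% over thresholded nuclear summits and 35.4% in the nuclear genome.

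Among the FEM genes, fem-2 (WBGene00001412, chrIII:632019-634626, minus strand) carried the strongest peak by signal of all 10 members in each replicate. Its peak had a signal of 571 and rank 219 of 26104 peaks in replicate 1 (chrIII:634420-635102), and a signal of 354 and rank 229 of 27612 peaks in replicate 2 (chrIII:634503-635021). The pooled interval was chrIII:634435-635099. The summits lay 142 and 135 bp upstream of the 5′ end, 3 and 10 bp from the pooled summit. Both replicates thus placed the peak at nearly the same base and rank. The summits lie in the 266 bp between fem-2 and T19C3.7, a gene on the same strand, and the peak intervals reach into both genes. The interval was listed again, in replicate 2 with a slightly different end, with another summit 200 bp away in the pooled list, in an exon of T19C3.7, with a signal of 129 and rank 777 in replicate 1, 108 and rank 659 in replicate 2, and 220 and rank 725 in the pooled list. No other protein-coding window held the main fem-2 summit, and the nearest tRNA gene was 99306 bp away. By strongest summit fem-2 was number 269 of 1634 genes with a thresholded summit, number 264 in replicate 1 and number 269 in replicate 2. The genes next to it in pooled rank were ced-9, mev-1 and jmjd-4, whose windows share the peak of rank 221, and git-1 and mboa-7, whose windows share that of rank 223.

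The fem-1 promoter, in front of a gene for an ankyrin repeat protein that serves as substrate receptor of the CUL-2 ligase, had weaker peaks that were less stable in position. The gene (WBGene00001411, chrIV:5533140-5537962, minus strand) lies head to head with drp-1, which encodes a dynamin-related protein of mitochondrial fission, with 525 bp between them. In replicate 1 the strongest summit lay 9 bp downstream of the 5′ end, with a signal of 45.2 and rank 3632. In replicate 2 it lay 452 bp upstream, with a signal of 49.8 and rank 2110. The pooled list had summits at 168 bp upstream (signal 68.3, rank 3898) and 415 bp upstream (54.5, rank 5525). The strongest summit thus sat at the fem-1 end of the gap in replicate 1 and at the drp-1 end in replicate 2, and these peaks fall in both genes' windows. A thresholded peak of signal 1840 and rank 128 lay 3514 bp upstream of fem-1, 151 bp upstream of tebp-2, and outside the fem-1 window.

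fem-3, whose protein acts with FEM-1 and FEM-2, had hardly any promoter signal and its strongest peak at the other end. Its pooled promoter summit (signal 30.3, rank 14736) lay 198 bp downstream of the 5′ end, just inside the window. The nearest replicate summits, 130 bp away in replicate 1 and 122 bp away in replicate 2, had a signal of 16.4 each and lay outside the window, 328 bp downstream in replicate 1 and 320 bp in replicate 2. The strongest fem-3 peak had its summit in an exon, 35 bp before the annotated 3′ end, with a signal of 63.6 and rank 4325 in the pooled list. It was at 35 bp in replicate 1 (signal 25.4, rank 9589) and at 40 bp in replicate 2 (34.7, rank 3684). The replicates agree within 5 bp on its position but place it at quite different ranks, and it is not in the thresholded list.

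**Figure D2:**
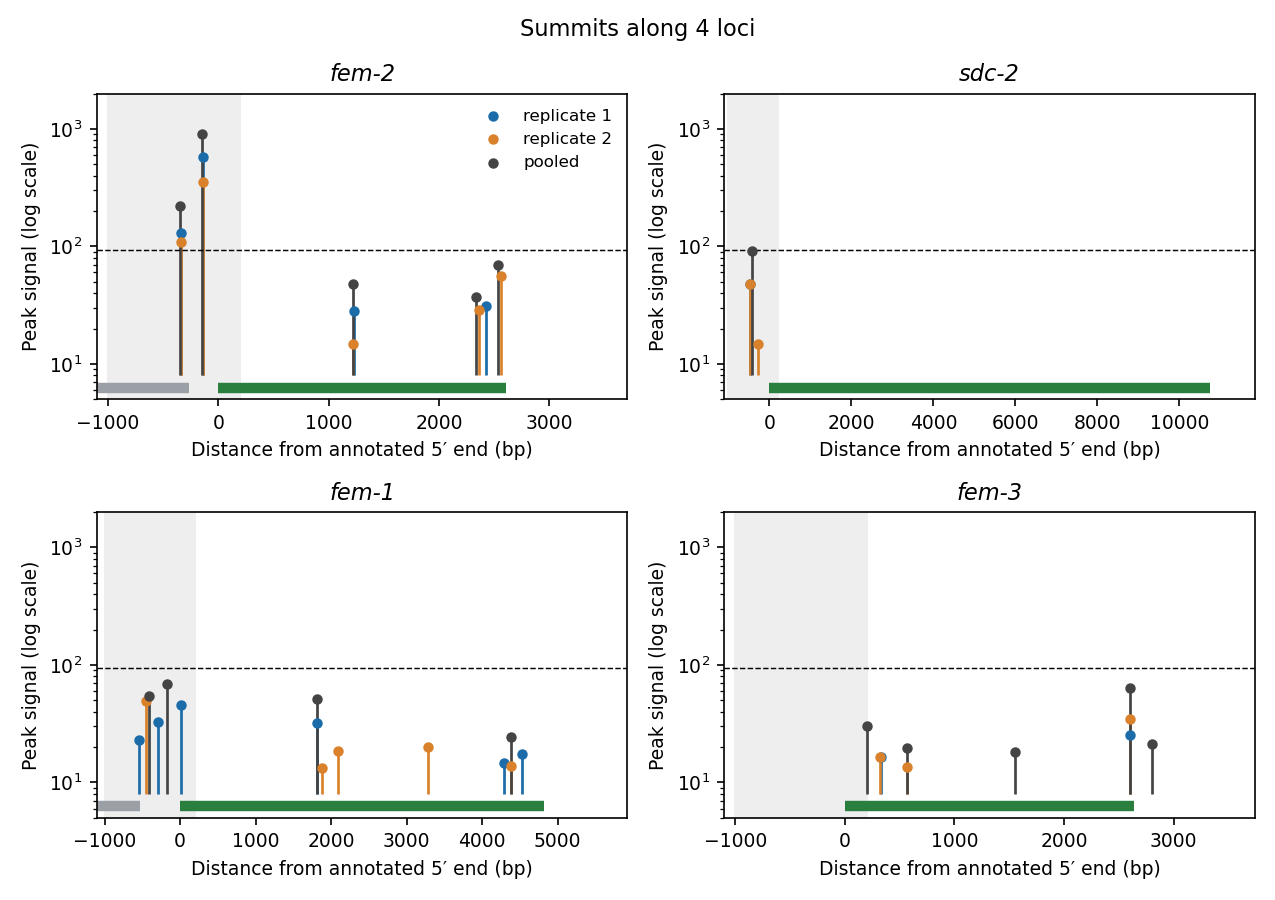
Summits along fem-2, sdc-2, fem-1 and fem-3, by distance from the annotated 5′ end (bp) and peak signal (log scale), in replicate 1, replicate 2 and the pooled list. Green bars are the genes, and grey bars the neighbours T19C3.7 (left of fem-2) and drp-1 (left of fem-1). Grey shading is the promoter window, and dashed lines are the lowest thresholded signal, a pooled value. Only fem-2 rises above that line, at 2 summits. The line is no cut for the replicates, where the signal at the same number of peaks was 58.8 (replicate 1) and 44.6 (replicate 2).

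At the top of the pathway, sdc-2 stood at the edge of the threshold and xol-1 had no peak. The sdc-2 gene (WBGene00004746, chrX:11522707-11533450, plus strand) had a summit 465 bp upstream in replicate 1, with a signal of 48.1 and rank 3302. In replicate 2 the summit lay 483 bp upstream, with a signal of 47.6 and rank 2228. The pooled summit was 428 bp upstream. Both replicates hold the peak in about the same place, and replicate 2 has it among its 2465 strongest peaks while replicate 1 does not. Along xol-1 (WBGene00006962, chrX:8041313-8044409, plus strand), which encodes a GHMP kinase family protein, no list had a summit from 1000 bp upstream to 1000 bp past the 3′ end. The nearest summit was 3778 bp upstream in the pooled list (signal 122, rank 1741). A lack of listed peaks does not show that the protein is absent, because read depth is unknown from these files.

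The ligand and receptor genes had close to nothing at their promoters. Along her-1 (WBGene00001842, chrV:9697015-9702035, plus strand) the pooled list had a summit in an intron 2636 bp downstream of the 5′ end, with a signal of 22.6 and rank 22547. Replicate 1 had one 2516 bp downstream (signal 15.1, rank 21730) and replicate 2 had none in the gene. At tra-2 (WBGene00006605, chrII:6955384-6965673, minus strand) a promoter summit was listed in replicate 1 alone, 143 bp downstream, with a signal of 13.7 and rank 24565. That tra-2 peak ranks near the bottom of the 26104 in its list, where the authors kept peaks and background together. The strongest tra-2 peaks lay around the 3′ end, which overlaps the 3′ end of the homeobox gene ceh-38 on the other strand. They had a signal of 25.2 and rank 9715 in replicate 1, 63 bp before the end, and 28.7 and rank 5216 in replicate 2, 230 bp past it.

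tra-1 (WBGene00006604, chrIII:11170890-11195201, minus strand) carried the only thresholded peak among the members that lay outside a promoter. Its summit was 9548 bp downstream of the 5′ end (chrIII:11185398-11185907), inside intron 4, which is 7880 bp long in both annotated transcripts. The signal was 71.7 with rank 1830 in replicate 1, 48.2 with rank 2206 in replicate 2, and 120 with rank 1771 in the pooled list. The 3 summits fell within a few bases of each other, at 9547, 9550 and 9548 bp. Of all protein-coding genes 3.15% had a thresholded summit in the gene beyond 200 bp from the 5′ end, and tra-1 is the longest of the 10 genes. Its promoter had a signal of 26.9 (rank 8720) in replicate 1, 823 bp upstream, and 27.4 (rank 5720) in replicate 2, 556 bp upstream. The pooled promoter summit, at 587 bp upstream with a signal of 38.2 and rank 10002, was 20 bp from the start of the GCGCCAGC match. Of the 310 windows with that word 154 (49.7%) had a thresholded summit, and tra-1 is among the others. That share includes the strong peaks from which the word was taken.

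The genes for sperm fate had weak peaks or none. fog-1 (WBGene00001481, chrI:3211046-3217267, plus strand), which encodes a CPEB-family RNA-binding protein, had a promoter summit 654 bp upstream in replicate 1, with a signal of 35.3 and rank 5436. Replicate 2 had none, and the nearest was 5611 bp upstream. The pooled value was 45.1 with rank 7520, 576 bp upstream. An intronic fog-1 peak at 1706 bp downstream was likewise listed in replicate 1 (signal 28.3, rank 7944) and not in replicate 2. fog-3 (WBGene00001483, chrI:10016765-10018121, plus strand), a gene of the Tob/BTG family, had no thresholded peak and a single peak in each relaxed list. It lay 116 bp before the 3′ end in replicate 1 (signal 15.0, rank 21890) and 28 bp before it in replicate 2 (14.2, rank 18913).

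Without the threshold, 6 of the 10 members had a pooled relaxed summit in the window, sdc-2, fem-1, fem-2, fem-3, tra-1 and fog-1, against 39% of all genes. In replicate 1 it was 6 (sdc-2, tra-2, fem-1, fem-2, tra-1 and fog-1), against 36.0% of all genes, and in replicate 2 it was 4 (sdc-2, fem-1, fem-2 and tra-1), against 37.2%. Those 4 had one in both replicates, against 26.9% of all genes. This counts any summit in the window, which need not be the same peak. The strongest lay apart at fem-1 (9 bp downstream and 452 bp upstream) and at tra-1 (823 and 556 bp upstream). The median strongest pooled signal of those 6 was 56.7, against 42.7 over the 7791 genes with such a summit. A pooled summit lay within 200 bp of the 3′ end at 4 of 10 members, tra-2, fem-2, fem-3 and fog-3, against 20.4% of all genes, and a thresholded one at 0, against 1.91%. The same 4 had one in replicate 1 (17.4% of all genes), and all but tra-2 in replicate 2 (18.5%). At fem-2 the strongest 3′ summit in replicate 1 lay 185 bp before the end, with a signal of 31.4 and rank 6629. In replicate 2 it lay 43 bp before the end, with a signal of 55.8 and rank 1757. Nearer to the replicate 1 summit, replicate 2 had another, 243 bp before the end, with 28.7 and rank 5212. Inside the gene, beyond 200 bp from the 5′ end, 8 members had a pooled summit (39.4% of all genes), 8 had one in replicate 1 (36.1%) and 6 in replicate 2 (39.9%). The counts at 3′ ends and inside genes were chosen after seeing the data, and nothing is read from them about the genes as a set. Peaks per kilobase, over each gene and 1000 bp on either side, ranged from 0 at xol-1 to 1.085 at fem-2 in the pooled list. Over the nuclear genome it was 0.299. The others had 0.078 (sdc-2), 0.142 (her-1), 0.298 (fog-3), 0.325 (tra-2), 0.365 (fog-1), 0.586 (fem-1), 0.608 (tra-1) and 1.077 (fem-3). In replicates 1 and 2 fem-3 had 0.431 and 0.646. The fem-2 value counts its repeated interval as another peak.

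Apart from the relaxed lists, 1 other way of counting changed the number. With as many of the strongest peaks of replicate 2 alone as the thresholded list holds, sdc-2, fem-1 and fem-2 were counted, against 7.82% of all genes. With those of replicate 1 alone fem-2 was counted, against 7.85%. fem-2 was also the member counted in the upper 1232 thresholded peaks (4.28% of all genes) and the upper 250 (1.46%). It was likewise with windows of 500 bp upstream to 100 bp downstream (6.42%) and 2000 bp upstream to 500 bp downstream (10.9%), with the 5′ end of every transcript (8.75%), with the nearest 5′ end only (6.02%) and by overlap of the peak interval (9.03%).

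**Figure D3:**
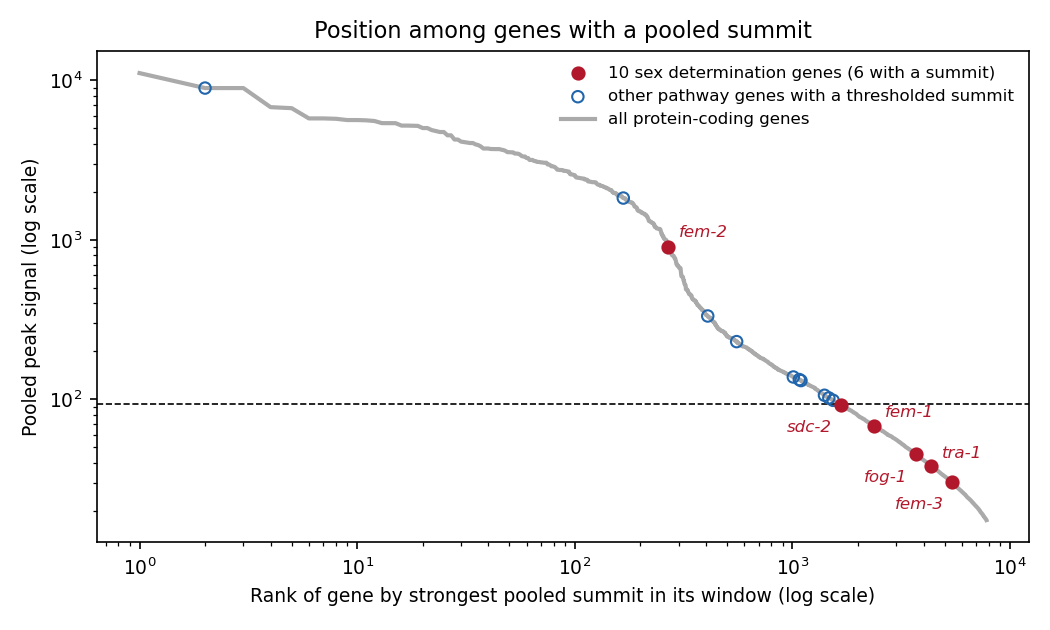
Protein-coding genes ordered by the signal of the strongest pooled summit in their window (both axes log scale), with the 6 sex determination genes that have one in red and other pathway genes with a thresholded summit as open blue circles. fem-2 stands at position 269, and sdc-2, fem-1, fog-1, tra-1 and fem-3 lie below the dashed line at the lowest thresholded signal.

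Around this core lie genes that count chromosomes, run dosage compensation, modify the somatic pathway or decide between sperm and oocytes. Of 45 such genes listed by role, 44 were found by symbol (mog-6 was not), and 10 (22.7%) had a thresholded summit in the window, against 8.18% of all genes. The list was written with earlier results known, in which larp-1 was already prominent, and it is not independent evidence of a preference. Without the threshold 32 (72.7%) had a pooled summit, against 39% of all genes.

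Of the 44 genes 18 belong to the germline decision, and 6 of these had a thresholded summit, against 8.18% of all genes. In the other roles it was 2 of 9 dosage compensation genes, 1 of 7 modifiers of the somatic pathway, 1 of 5 X signal elements and their autosomal counterparts, and 0 of 5 downstream genes. These groups are small and of unequal size, and the differences between them were not tested. The values that follow are of the strongest peak in the window, in replicate 1 and then in replicate 2, and at atx-2, puf-8 and gld-3 its summits in the replicates lay more than 100 bp apart. larp-1, which encodes a La-related RNA-binding protein, had signals of 5101 and 3896 and rank 2 in each replicate. The peak is shared with wip-1, and its pooled summit lay nearer to that gene, 319 bp upstream of wip-1 and 670 bp upstream of larp-1. mog-4, a gene for a DEAH-box helicase needed for the switch to oocytes, had 181 (rank 520) in replicate 1 and 167 (rank 391) in replicate 2, with its summit 212 bp upstream in the pooled list. atx-2, the ataxin-2 gene, had 118 (rank 878) 634 bp upstream in replicate 1 and 108 (rank 658) 50 bp upstream in replicate 2. These are different peaks, in intervals that do not overlap. The pooled summit lay 50 bp upstream, and the replicate 1 summit nearest to it had 114 (rank 922). That pooled summit also lies in the window of ecps-1. gld-3, a gene for a KH-domain protein that works with the poly(A) polymerase GLD-2, had 70.0 (rank 1902) and 64.0 (rank 1471), and its strongest summit also lies 81 bp upstream of T07F8.4. puf-8, which encodes a Pumilio-family repressor, had 98.7 (rank 1151) 245 bp upstream in replicate 1 and 53.4 (rank 1875) 81 bp upstream in replicate 2. Its pooled summit lay 249 bp upstream, where the nearest replicate 2 summit had 34.4 (rank 3734). That pooled summit also lies 846 bp upstream of C30G12.1. gld-2 itself had 54.0 (rank 2780) and 51.6 (rank 1991), 79 bp downstream of its 5′ end in the pooled list. The other 12 had no thresholded summit, among them fbf-1, fbf-2, fog-2 and gld-1.

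The other roles held the remaining 4 sites. sel-10, which encodes an F-box protein that binds FEM proteins, had a signal of 1102 and rank 129 in replicate 1 and 745 and rank 133 in replicate 2, 165 bp upstream in the pooled list, and was the only one of 7 modifiers of the somatic pathway with a thresholded summit. Its signal thus exceeded that of fem-2 in each replicate. cul-2, for the scaffold of the ligase that contains the FEM proteins, had 14.2 (rank 23437) in replicate 1 and no summit in replicate 2. Of 9 dosage compensation genes 2 were counted. dpy-27, a condensin subunit gene specific to that complex, had 85.0 (rank 1433) in replicate 1 and 53.1 (rank 1889) in replicate 2, and dpy-30, a gene for a subunit shared with histone methyltransferase complexes, had 51.6 (rank 2980) and 51.5 (rank 2001). capg-1, with a pooled signal of 92.2 and rank 2528, missed the threshold by about as much as sdc-2 in the pooled list. It had 30.8 (rank 6846) in replicate 1, further down than sdc-2, and 48.5 (rank 2177) in replicate 2. Of 5 X signal elements and their autosomal counterparts, ceh-39, an X-linked ONECUT homeobox gene, was counted, with 58.9 (rank 2457) and 42.0 (rank 2691). None of 5 downstream genes, mab-3, dmd-3, mab-23, egl-1 and ceh-30, had a thresholded summit, and mab-3 had 21.1 (rank 13111) in replicate 1 and 19.7 (rank 10681) in replicate 2. Of the 10 sites, larp-1, sel-10, mog-4 and atx-2 lay in the upper 1232 thresholded peaks, and the others lay nearer the threshold.

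**Figure D4:**
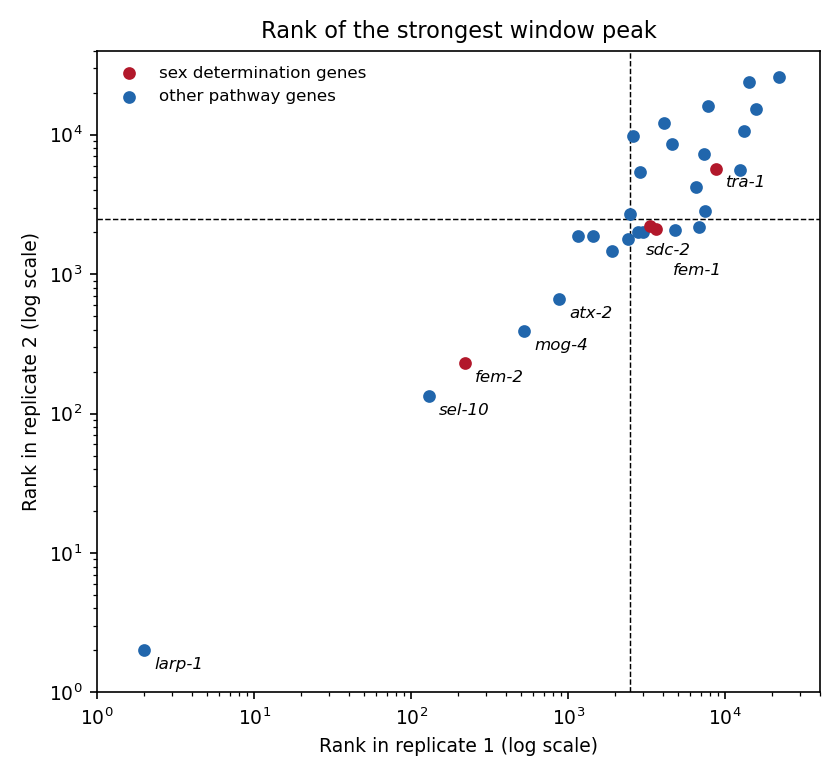
Rank of the strongest window peak in replicate 1 (x) and replicate 2 (y), both log scale, for genes with a summit in both, with sex determination genes in red and other pathway genes in blue and dashed lines at rank 2465. fem-2 (219 and 229) lies between sel-10 and mog-4, whereas sdc-2 and fem-1 pass the line for replicate 2 alone.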

How the data were processed

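Peaks were deposited by the authors in narrowPeak format on ce11 as a relaxed list of peaks and background for each replicate, a relaxed pooled list of 30000 peaks and a thresholded list of 2465 peaks. The thresholded list is derived from the other 3 by irreproducible discovery rate, per the file headers. The deposited signal and the deposited −log10 q of each peak are the authors' values. Since all thresholded peaks have the same −log10 q, 2.78, ranks here follow the signal. In the replicate lists the −log10 q varies and can order peaks otherwise. For the strongest window peaks of fem-2, sdc-2 and fem-1 it was 3.12, 2.54 and 2.32 in replicate 1. In replicate 2 it was 1.96, 2.47 and 2.45, lowest at fem-2. That list equals the 2465 strongest pooled peaks, and 289 of its entries share an interval with another. The caller, aligner and filters: not given in the sources used here. Read depth is unknown, and the control alignment and the ce10 lists were not used. Median peak width was 596 bp in replicate 1 and 510 bp in replicate 2.

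Gene positions came from the WBcel235 annotation, release 115, the same assembly as ce11, and sequences from its RefSeq copy. Many transcripts are trans-spliced, so a 5′ end can lie downstream of the start of transcription. The members and lists were chosen with earlier results of these data known. All members were named, as were the wider list's genes with a thresholded summit, the neighbours whose windows share a member's summit, and the genes adjacent in rank. Wider genes without one that are given with values (cul-2, capg-1, mab-3) and the genes at nearest thresholded peaks were chosen after their values were seen. The window count was tested on simulated summits placed in the same windows, and the word count on simulated sequence with a planted word. The first of these checks the counting and cannot show whether the windows were rightly defined. No p-value was computed. Scripts ran in Python 3.11.15, figures with matplotlib 3.10.9, and tables with pandas 2.3.3 on numpy 2.4.6.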

Additional observations from a re-analysis of the deposited data

How the results depend on the processing

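fem-2 was the only member counted in the upper 1232 and upper 250 thresholded peaks, with windows of 500 bp upstream to 100 bp downstream and of 2000 to 500 bp, with every transcript's 5′ end, with the nearest 5′ end only and by interval overlap. Leaving out each replicate in turn gave 1 to 3 members: with replicate 2 alone, sdc-2 and fem-1 joined fem-2, against 7.82% of all genes, and with replicate 1 alone fem-2 stood by itself. The whole relaxed pooled list gave 6 members. Of the wider genes, 4 were counted in the upper 1232 peaks, 2 in the upper 250 and 32 in the relaxed list, and 9 to 12 when each replicate was left out. The cause of these differences was not tested, beyond the lists being shorter or longer. With windows of 500 bp upstream to 100 bp downstream 8 wider genes were counted (6.42% of all genes), without larp-1 and dpy-27. With the nearest 5′ end only it was also 8 (6.02%), without larp-1 and gld-3. It was 10 with every transcript's 5′ end (8.75%), and 11 with the longer window (10.9%) and by interval overlap (9.03%). fem-2 was found among the strongest peaks of both replicates under each matching rule. Counting repeated intervals once made each of 10 member ranks a smaller number, in replicate 1 with fem-2 at 212, fog-1 at 5242 and tra-2 at 24356. No paired analysis was possible because there is 1 group. Read depth is unknown, so a gene without a listed peak may still be bound weakly.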
